A study of Homo sapiens with 8 samples.

Results

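Of the 15221 genes tested in this series, 40 belong to the integrated stress response and the unfolded protein response of the endoplasmic reticulum (ER). They were taken by symbol from a list of the 2 pathways, not by a threshold on measured values. The list was chosen with earlier results of these data known. Of the 40, 28 form the arm centred on ATF4, the transcription factor of the integrated stress response, and 12 form the ER arm, with IRE1 and XBP1, the chaperones of the ER and its degradation and translocation machinery. All 40 had reads and passed the filter on low counts. The RNA came from UDSCC2, an HPV+ head and neck squamous cell carcinoma line that carries human papillomavirus, and from UPCISCC89, an HPV− line, and in each line a cisplatin resistant clone was set against the parental cells to ask which genes differ once resistance has been established. HPV+ resistant cells (SCC35) had been selected in cisplatin raised from 5 to 10 µM and HPV− resistant cells (SCC411) in cisplatin raised from 2.5 to 5 µM, over months and with some passages free of drug, and after cloning both were grown without cisplatin. HPV+ parental cells (SCC2) and HPV− parental cells (SCC89) had no such treatment. Each of the 4 groups had 2 libraries, and each resistant group is a single clone, so a difference between a clone and its line cannot be told apart from one between cells within that line.

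The integrated stress response begins with kinases, among them PERK (EIF2AK3) in the ER membrane and GCN2 (EIF2AK4) in the cytosol, that phosphorylate the initiation factor eIF2. General translation then falls while translation of the ATF4 mRNA rises, and ATF4 protein with partners of the C/EBP family switches on genes for amino acid synthesis, amino acid uptake, tRNA charging and, when stress persists, cell death. The unfolded protein response adds IRE1 (ERN1), which removes a short piece from the XBP1 mRNA, and ATF6, and the factors they release raise chaperones and degradation enzymes of the ER. Since ATF4 is set largely by translation and XBP1 by splicing, mRNA levels alone do not report the activity of either factor. Cisplatin has been reported to set off both responses in several cell types.

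Libraries held 20250246 to 27341284 estimated read pairs. All 11 markers of squamous epithelium were detected in every group, and they summed to 5898 to 7179 CPM (read pairs of a gene after scaling each library for its depth) in HPV+ resistant cells, against 5471 to 5773 CPM in HPV+ parental cells, and to 4766 to 5859 CPM in HPV− resistant cells, against 23049 to 24203 CPM in HPV− parental cells. Of 6 fibroblast genes, COL3A1, DCN and LUM were abundant in the HPV+ line, and the list summed to 1451 to 3220.0 CPM in HPV+ resistant cells and 3066 to 3389 CPM in HPV+ parental cells, while PDGFRB was at 0 in both. DCN and LUM were chosen here after their values were seen, and the rest of the list did not follow them. COL3A1, the most abundant, had 3079 and 1358 CPM in HPV+ resistant cells, against 2718 and 2974 CPM in HPV+ parental cells, with overlap. COL1A1 overlapped too, at 5.15 and 6.70 CPM in HPV+ resistant cells, against 6.52 and 5.85 CPM in HPV+ parental cells, as did COL1A2 at low counts. DCN had 43.6 and 20.03 CPM in HPV+ resistant cells, against 99.4 and 119 CPM in HPV+ parental cells, and LUM had 91.0 and 65.8 CPM in HPV+ resistant cells, against 241 and 289.9 CPM in HPV+ parental cells, and both were called lower. The fibroblast list summed to 12.0 to 12.3 CPM in HPV− resistant cells and 4.70 to 4.73 CPM in HPV− parental cells, and endothelial genes summed to under 1 CPM in every library. Of 5 leukocyte genes 3 were under 1 CPM in every group. The list summed to 34.9 to 67.7 CPM in HPV− resistant cells, against 152 to 156 CPM in HPV− parental cells, nearly all from CD68, which was called lower. In the HPV+ line it summed to 10.7 to 13.6 CPM in resistant cells and 16.2 to 18.3 CPM in parental cells. The part of these marker genes in the results below was not tested. The samples were cultures of a carcinoma line or of a single clone of it. Bulk RNA does not show which of the cultured cells held these transcripts. Whether both libraries of a group stem from independent cultures is stated nowhere, and the p-values therefore cover the variation between libraries alone, which may be technical.

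The DNA elements through which both arms are known to act were looked for in the RefSeq promoters (GRCh38.p14, 250 bases before to 50 after the transcription start), which held 37 of the 40 genes. On the ER side the element is the ER stress response element, ERSE, written CCAAT, then 9 bases, then CCACG, with a shorter form, ERSE-II, written ATTGG, 1 base, CCACG. On either strand, 1 of these 2 forms was found in 6 of 12 promoters of the ER arm, 0 of 25 in the integrated stress response arm and 0.131% of all 35116 promoters. For each of the 37 genes only the first promoter listed was searched, while the shares of all promoters count every entry. The stretches are shown because they mark the ER genes whose levels are followed below, with the element in capitals (on the opposite strand in CALR, SDF2L1 and the second element of HSP90B1):
HSPA5, chr9:125241381-125241419, minus strand: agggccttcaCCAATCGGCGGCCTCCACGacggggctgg
XBP1, chr22:28800593-28800631, minus strand: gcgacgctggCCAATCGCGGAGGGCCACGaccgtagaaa
CALR, chr19:12938374-12938412, plus strand: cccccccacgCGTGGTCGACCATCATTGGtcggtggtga
HSP90B1, chr12:103930206-103930349, plus strand: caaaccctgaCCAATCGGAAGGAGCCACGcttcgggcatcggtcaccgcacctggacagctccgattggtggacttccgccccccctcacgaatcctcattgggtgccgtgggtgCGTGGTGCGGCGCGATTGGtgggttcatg
SDF2L1, chr22:21642104-21642134, plus strand: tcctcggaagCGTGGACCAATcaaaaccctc
HERPUD1, chr16:56931956-56932045, plus strand: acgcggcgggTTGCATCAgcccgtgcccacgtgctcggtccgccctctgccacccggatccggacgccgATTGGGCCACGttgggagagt

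HERPUD1 also held, in capitals on the opposite strand at its stretch's left end, the C/EBP-ATF composite element TGATGNAA to which ATF4 dimers bind. This second element was present in 6 of 25 promoters of the integrated stress response arm (24.0%), 1 of 12 in the ER arm and 3.62% of all promoters. The cyclic AMP response element TGACGTCA, a site for ATF family factors, was in 1 of 25 promoters of that arm, PPP1R15A, and in 1.85% of all promoters, and the element TGACGTGG was in none of the 37 and in 0.729% of all. The composite sites upstream of the start, and the PPP1R15A site, are shown with the match in capitals (opposite strand in CHAC1 and AARS1), and those of SLC3A2 and SLC7A1 lay after the start:
ATF3, chr1:212565206-212565233, plus strand: aaggtcaggaTGATGGAAggctgtcata
CHAC1, chr15:40953252-40953279, plus strand: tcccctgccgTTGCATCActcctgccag
ASNS, chr7:97872459-97872486, minus strand: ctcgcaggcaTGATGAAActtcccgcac
AARS1, chr16:70289676-70289703, minus strand: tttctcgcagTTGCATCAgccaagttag
PPP1R15A, chr19:48872353-48872380, plus strand: cctctcttcgTGACGTCAgcacgccggg

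**Figure D1:**
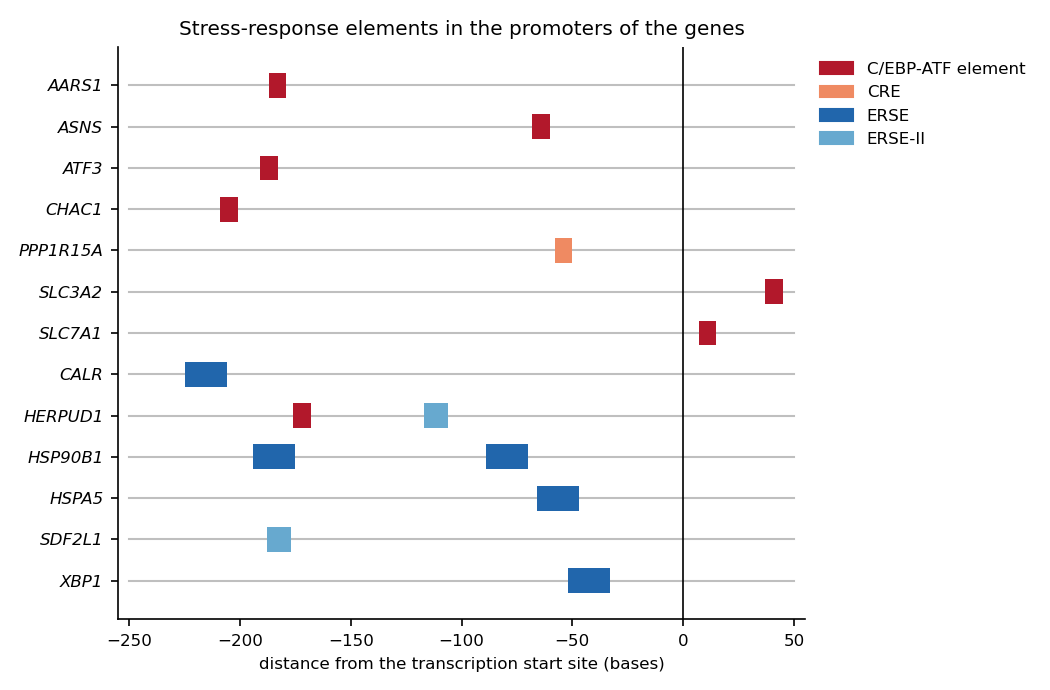
Promoter elements of the 13 genes that held 1, with distance from the transcription start in bases along the horizontal axis and 1 line per gene. Red bars are C/EBP-ATF elements, orange the cyclic AMP response element, dark blue ERSE and light blue ERSE-II. The ERSE forms sit in 6 ER genes, between 225 and 34 bases before the start.

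In the HPV+ line, 9 of the 28 genes of the integrated stress response arm rose in resistant cells and none fell, where a call needs a Benjamini-Hochberg adjusted p below 0.05 over all genes and a log2 fold change beyond 1. Across all genes 8.0% were called in this comparison, 3.4% higher and 4.6% lower. The median log2 fold change of the arm was 0.22 beside 0.00 over all genes. The 9 were ATF3, DDIT4, WARS1, TRIB3, PSAT1, PPP1R15A, CHAC1, CEBPG and DDIT3. In the HPV− line 1 of the 28 rose, DDIT4, and 4 fell, ATF3, PPP1R15A, ATF4 and MTHFD2, against 6.06% higher and 5.22% lower among all genes (11.3% in both directions), with a median of -0.30 beside 0.04 over all genes. No gene of the ER arm was called in either line. Without a minimum fold, 10 of the 28 were higher and none lower in the HPV+ line (18.1% of all genes in either direction), and 2 were higher and 7 lower in the HPV− line (26.8% of all genes). The 2 resistant libraries lay above both parental ones in 15 of the 28 and below in 4 in the HPV+ line, where 67.8% of all genes did 1 or the other. In 3 they lay above and in 13 below in the HPV− line, where 61.2% of all genes did, 32.7% above and 28.5% below.

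**Figure D2:**
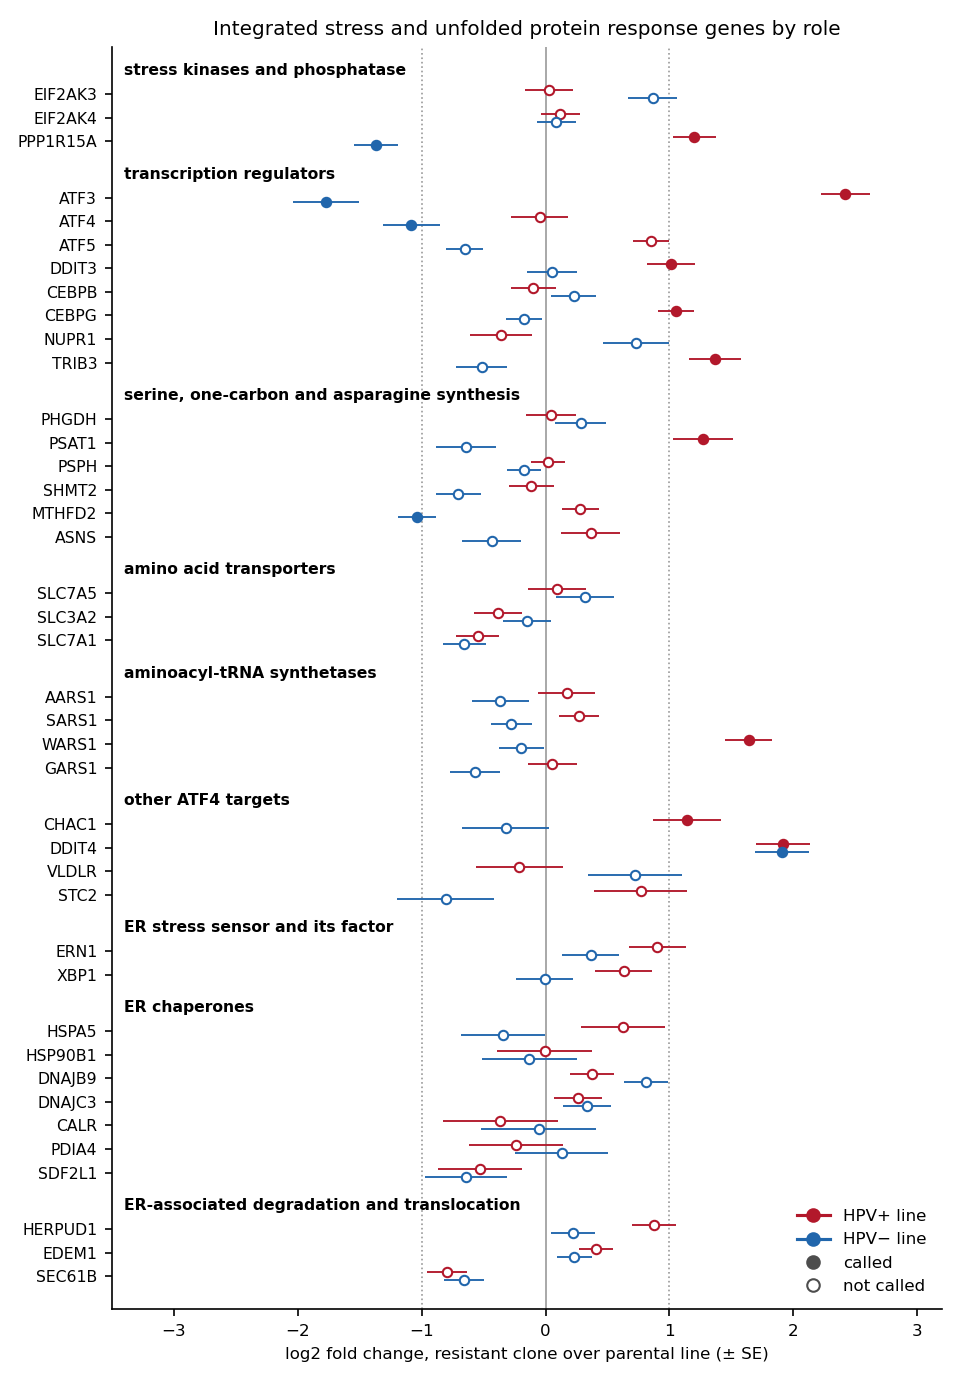
Log2 fold change of resistant over parental cells (horizontal axis, ± SE) for the 40 genes grouped by role, with the HPV+ line in red above the HPV− line in blue. Filled points were called, and dotted lines mark a log2 fold change of 1 in each direction. ATF3 lies furthest right of all points in the HPV+ line, at 2.42, and furthest left in the HPV− line, at -1.77.

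Among the transcription regulators of the HPV+ line, ATF3, a stress-induced bZIP factor that mostly represses, had 89.5 and 106 CPM in HPV+ resistant cells, against 18.9 and 17.7 CPM in HPV+ parental cells. Its libraries were 5.34-fold apart in the fit, with a log2 fold change of 2.42 ± 0.20 (SE, edgeR, adjusted p = 9.02e-05), and this was the largest among the 40 genes. TRIB3, a pseudokinase induced by ATF4 that restrains it in turn, had 612 and 667 CPM in HPV+ resistant cells, against 229 and 268 CPM in HPV+ parental cells, a log2 fold change of 1.37 ± 0.21 (SE, edgeR, adjusted p = 0.0022). CEBPG, a partner of ATF4 in dimers, had 208 and 220.2 CPM in HPV+ resistant cells, against 98.1 and 108 CPM in HPV+ parental cells, a log2 fold change of 1.05 ± 0.14 (SE, edgeR, adjusted p = 0.0013). Both resistant libraries lay above both parental libraries for all 3. DDIT3, which encodes the death-promoting factor CHOP, had 93.7 and 107 CPM in HPV+ resistant cells, against 46.6 and 53.1 CPM in HPV+ parental cells, a log2 fold change of 1.01 ± 0.19 (SE, edgeR, adjusted p = 0.0064), again with no overlap. ATF5, a factor of the mitochondrial stress response, had 1274 and 1187 CPM in HPV+ resistant cells, against 683 and 682 CPM in HPV+ parental cells. Its log2 fold change of 0.85 ± 0.14 (SE, edgeR, adjusted p = 0.0036) passed the test but not the fold threshold.

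ATF4 itself did not follow these genes at the mRNA level. It had 595 and 619 CPM in HPV+ resistant cells, against 639.6 and 614 CPM in HPV+ parental cells, a log2 fold change of -0.05 ± 0.23 (SE, edgeR, adjusted p = 0.92), and the 2 groups overlapped. CEBPB, another partner of ATF4, ranged from 228 to 268 CPM in HPV+ resistant cells and from 247 to 283 CPM in HPV+ parental cells, and NUPR1, a stress-induced chromatin protein, had a log2 fold change of -0.36 ± 0.25 (SE, edgeR, adjusted p = 0.35). Of the genes that act on eIF2, PPP1R15A, whose product GADD34 directs a phosphatase to eIF2 and so ends the response, had 167 and 228 CPM in HPV+ resistant cells, against 86.3 and 85.4 CPM in HPV+ parental cells, a log2 fold change of 1.20 ± 0.17 (SE, edgeR, adjusted p = 0.0017). The libraries did not overlap, and resistant replicate 2 was the higher. The kinases PERK and GCN2 had log2 fold changes of 0.03 and 0.12 and were not called.

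Target genes in the HPV+ line were split. WARS1, the tryptophanyl-tRNA synthetase and also a known interferon-induced gene, had 291 and 323 CPM in HPV+ resistant cells, against 98.2 and 98.9 CPM in HPV+ parental cells, a log2 fold change of 1.64 ± 0.19 (SE, edgeR, adjusted p = 4.83e-04). The other 3 tRNA synthetases of the arm, AARS1, SARS1 and GARS1, had log2 fold changes of 0.17, 0.27 and 0.06 and were not called. WARS1 lies on chromosome 14, and the 30 tested genes around it had a median log2 fold change of 0.55 in this comparison, so the change of the gene and that of its neighbourhood cannot be told apart. Around TRIB3, on chromosome 20, 19 such genes had a median of 0.40. DDIT4, which encodes the mTORC1 inhibitor REDD1, had 404 and 647 CPM in HPV+ resistant cells, against 136 and 143 CPM in HPV+ parental cells, a log2 fold change of 1.92 ± 0.22 (SE, edgeR, adjusted p = 4.69e-04). The lowest resistant library was well above both parental ones, although the 2 resistant libraries differed more from each other than the parental ones did.

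CHAC1, an enzyme that degrades glutathione, had 24.3 and 30.8 CPM in HPV+ resistant cells, against 12.6 and 12.4 CPM in HPV+ parental cells, a log2 fold change of 1.14 ± 0.28 (SE, edgeR, adjusted p = 0.019). PSAT1, of the serine synthesis pathway, had 113 and 117 CPM in HPV+ resistant cells, against 43.98 and 51.5 CPM in HPV+ parental cells, a log2 fold change of 1.27 ± 0.24 (SE, edgeR, adjusted p = 0.0077). In both genes the groups were apart. The 5 other genes of serine, one-carbon and asparagine synthesis were not called. ASNS, which makes asparagine and is a textbook ATF4 target, had 96.0 and 93.4 CPM in HPV+ resistant cells, against 65.6 and 81.6 CPM in HPV+ parental cells, a log2 fold change of 0.36 ± 0.23 (SE, edgeR, adjusted p = 0.31). PHGDH, the first enzyme of serine synthesis, was at 0.04, PSPH at 0.02, and SHMT2 at -0.11 on the log2 fold change scale. MTHFD2, a mitochondrial one-carbon enzyme, had 229.5 and 236 CPM in HPV+ resistant cells, against 182 and 201 CPM in HPV+ parental cells, a log2 fold change of 0.28 ± 0.15 (SE, edgeR, adjusted p = 0.22). None of the 3 amino acid transporters was called, at 0.10 for SLC7A5, -0.38 for SLC3A2 and -0.55 for SLC7A1. VLDLR (-0.21) and STC2 (0.77) completed the arm.

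These calls differed in how much they rested on single libraries. ATF3, TRIB3, WARS1 and DDIT4 were called in the HPV+ comparison whichever library was left out. Without HPV+ parental replicate 1 the count of the arm was 5, and CEBPG (0.97), DDIT3 (0.91), PSAT1 (1.14) and CHAC1 (1.13) were not called. Without HPV+ resistant replicate 2, PPP1R15A (0.95), DDIT3 (0.91) and CHAC1 (0.96) were not called, and CHAC1 was not called without HPV+ parental replicate 2 either (1.13). Asking for a log2 fold change significantly beyond 1 left 3 of the 9, ATF3, WARS1 and DDIT4. After the trend of fold change with GC content, length and level was subtracted, CEBPG was at 0.96, under the fold threshold. The other called genes of the HPV+ line stayed beyond it, and ATF5, not called, was at 1.19. The median of the arm in this line was then 0.38.

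**Figure D3:**
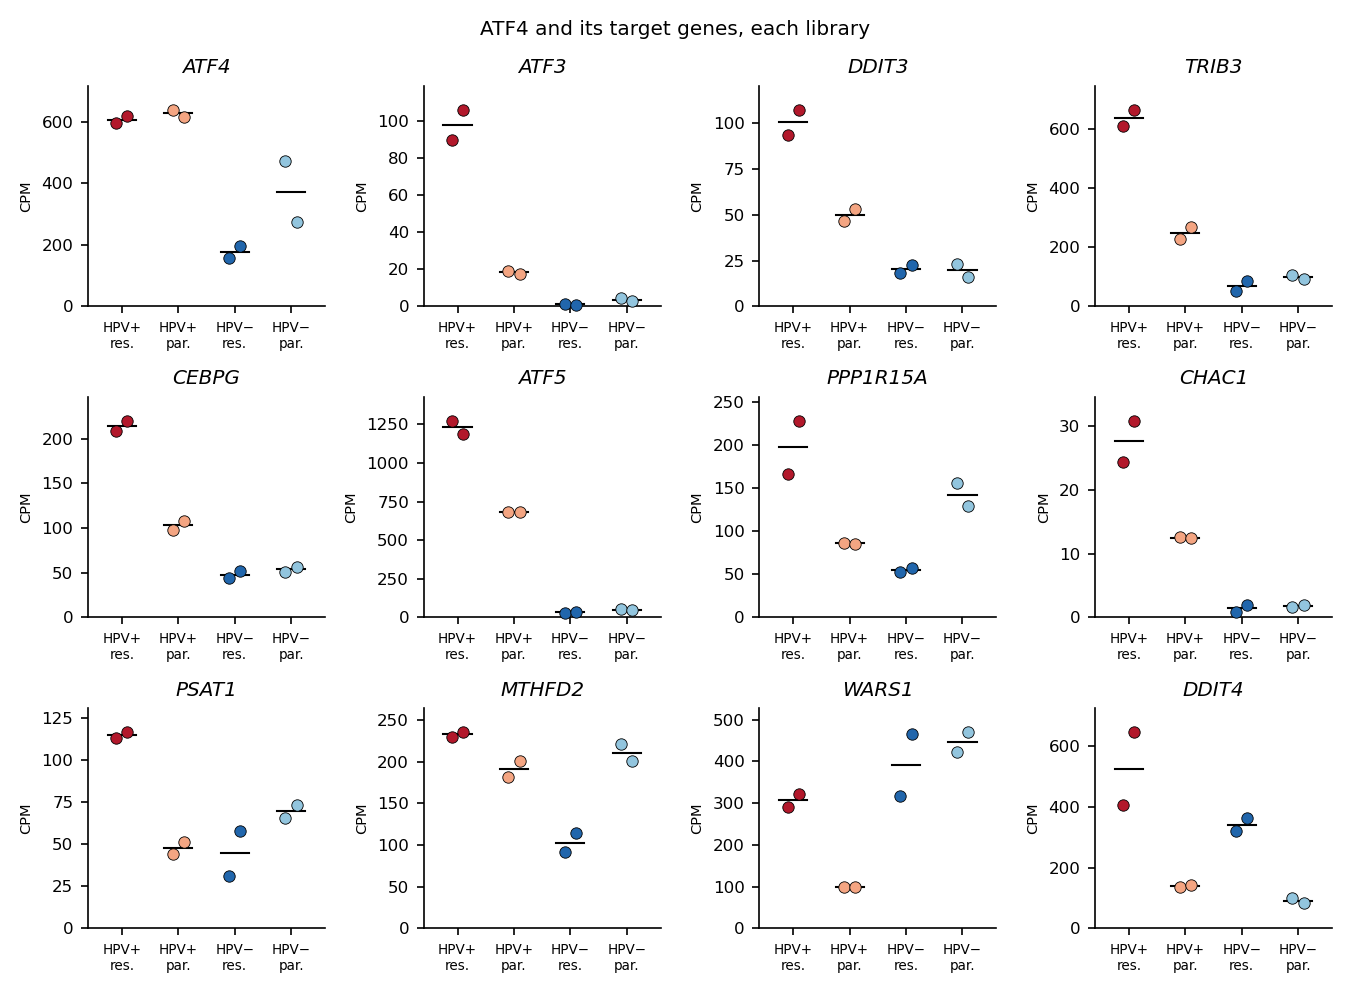
CPM of ATF4 and 11 genes of its arm in each of the 8 libraries, with groups along the horizontal axis (res., resistant; par., parental), 1 point per library and a bar at the mean of 2. In ATF3, TRIB3 and CEBPG the HPV+ resistant libraries stand apart from the other 6, whereas ATF4 is level between HPV+ resistant and HPV+ parental cells and DDIT4 is higher in both resistant clones.

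No regulator of the arm rose in the HPV− line, and 2 fell. ATF4 had 156 and 195 CPM in HPV− resistant cells, against 472 and 273 CPM in HPV− parental cells, a log2 fold change of -1.08 ± 0.23 (SE, edgeR, adjusted p = 0.0078). Both resistant libraries were lower, and the parental libraries were far apart. ATF3 had 1.21 and 0.897 CPM in HPV− resistant cells, against 4.33 and 2.93 CPM in HPV− parental cells, a log2 fold change of -1.77 ± 0.27 (SE, edgeR, adjusted p = 0.0014), at levels that were low throughout. Its main transcript, ATF3-202, held no estimated read in either HPV− resistant library. PPP1R15A had 52.9 and 57.1 CPM in HPV− resistant cells, against 156 and 129 CPM in HPV− parental cells, a log2 fold change of -1.37 ± 0.18 (SE, edgeR, adjusted p = 5.95e-04), with the resistant libraries well below. MTHFD2 had 91.6 and 114 CPM in HPV− resistant cells, against 221 and 201 CPM in HPV− parental cells, a log2 fold change of -1.04 ± 0.15 (SE, edgeR, adjusted p = 0.0011). DDIT4 was the exception, with 319.9 and 362 CPM in HPV− resistant cells, against 99.6 and 82.0 CPM in HPV− parental cells, a log2 fold change of 1.91 ± 0.22 (SE, edgeR, adjusted p = 3.50e-04), close to its value in the HPV+ line. After the trend of fold change with GC content, length and level was subtracted, ATF4 was at -0.67 and MTHFD2 at -0.82, under the fold threshold. ATF3 (-1.62), PPP1R15A (-1.18) and DDIT4 (2.25) stayed beyond it. The median of the arm in this line was then -0.16, and DDIT3, not called, was at 0.52. Without HPV− parental replicate 1 NUPR1, at 0.73 with all libraries, was called higher (1.28), as was the PERK gene EIF2AK3 without HPV− parental replicate 2 (1.07). The ATF4 and MTHFD2 calls were lost without HPV− parental replicate 1 (-0.64 and -0.97) or HPV− resistant replicate 1 (-0.93 and -0.89), and only DDIT4 kept its call when a log2 fold change beyond 1 was tested for.

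The remaining regulators of the HPV− line gave no call. TRIB3 had 53.6 and 86.0 CPM in HPV− resistant cells, against 105 and 94.2 CPM in HPV− parental cells, a log2 fold change of -0.52 ± 0.21 (SE, edgeR, adjusted p = 0.092). DDIT3 had 18.0 and 22.7 CPM in HPV− resistant cells, against 23.2 and 16.1 CPM in HPV− parental cells, a log2 fold change of 0.05 ± 0.20 (SE, edgeR, adjusted p = 0.88). CHAC1 was near the limit of what these libraries show, with 0.856 and 1.94 CPM in HPV− resistant cells, against 1.60 and 1.89 CPM in HPV− parental cells, and a log2 fold change of -0.32 ± 0.35 (SE, edgeR, adjusted p = 0.54). The libraries of the groups overlapped in DDIT3 and CHAC1 and did not in TRIB3. ASNS had 45.3 and 79.8 CPM in HPV− resistant cells, against 78.6 and 90.5 CPM in HPV− parental cells, a log2 fold change of -0.44 ± 0.24 (SE, edgeR, adjusted p = 0.2), with resistant replicate 2 inside the parental range. ATF5 had 29.3 and 34.2 CPM in HPV− resistant cells, against 51.5 and 48.2 CPM in HPV− parental cells, a log2 fold change of -0.65 ± 0.15 (SE, edgeR, adjusted p = 0.0095), past the test but not the fold. PSAT1 had 31.3 and 57.7 CPM in HPV− resistant cells, against 65.6 and 73.4 CPM in HPV− parental cells, a log2 fold change of -0.64 ± 0.24 (SE, edgeR, adjusted p = 0.077). Resistant libraries were the lower ones in both. CEBPG had 43.8 and 51.5 CPM in HPV− resistant cells, against 51.1 and 56.5 CPM in HPV− parental cells, a log2 fold change of -0.18 ± 0.14 (SE, edgeR, adjusted p = 0.4). WARS1 had 316 and 465 CPM in HPV− resistant cells, against 423 and 471 CPM in HPV− parental cells, a log2 fold change of -0.20 ± 0.18 (SE, edgeR, adjusted p = 0.46). In the last 2 the groups overlapped. Of the 23 genes not called, the log2 fold change ran from -0.81 for STC2 to 0.86 for EIF2AK3, the PERK gene. Leaving out HPV− resistant replicate 2 added PSAT1 (-1.16), SHMT2 (-1.04) and STC2 (-1.73) to the genes called lower, for a count of 8.

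Whether the 2 clones differed was tested directly as the HPV+ change minus the HPV− change. In the integrated stress response arm 9 of 28 genes had a higher change in the HPV+ line and none a lower one, beside 5.17% and 6.57% of all genes (11.7% together), and the median difference was 0.61 beside -0.03 over all genes. ATF3 differed most, by 4.19 ± 0.33 (SE, edgeR, adjusted p = 5.56e-05) on the log2 scale. PPP1R15A followed at 2.57 ± 0.25 (SE, edgeR, adjusted p = 1.64e-04). Each rose in HPV+ resistant cells and fell in HPV− resistant cells. PSAT1 differed by 1.91 ± 0.34 with adjusted p = 0.0053, TRIB3 by 1.88 ± 0.29 with adjusted p = 0.0024 and WARS1 by 1.83 ± 0.26 with adjusted p = 0.0014. ATF5 differed by 1.50 ± 0.21 with adjusted p = 0.0012, MTHFD2 by 1.32 ± 0.21 with adjusted p = 0.0027 and CEBPG by 1.23 ± 0.20 with adjusted p = 0.0031, all from the same edgeR fit. CHAC1 passed narrowly at 1.46 ± 0.45 with adjusted p = 0.049, and leaving out any 1 of 6 libraries, all but HPV− parental replicate 1 and HPV− resistant replicate 2, lost it, with values of 0.99 to 1.62. ATF4 differed by 1.04 ± 0.33 with adjusted p = 0.055 and DDIT3 by 0.96 ± 0.27 with adjusted p = 0.038 in edgeR, and neither was called, ATF4 on its p and DDIT3 on its size. Leaving out HPV− parental replicate 1 added NUPR1 as lower (-1.63), and leaving out HPV− parental replicate 2 added EIF2AK3 as lower (-1.05) and ATF4 (1.44) and DDIT3 (1.26) as higher. Without HPV− resistant replicate 2, DDIT3 (1.14), STC2 (2.49), ASNS (1.27) and AARS1 (1.03) were added as higher, and STC2 was added without HPV− resistant replicate 1 too (1.02). DDIT4 differed by 0.01 ± 0.30 (SE), the smallest difference in the arm.

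In the ER arm edgeR called 0 of 12 genes in the HPV+ line, 0 in the HPV− line and 0 in the difference between the lines, and DESeq2 called none either. At an unadjusted p below 0.05 there were 4 higher and 1 lower in the HPV+ line (15.1% and 18.0% of all genes), 1 higher and 1 lower in the HPV− line (19.8% and 19.5%), and 1 with a higher change in the HPV+ line (15.1%). With no minimum fold, HERPUD1 and ERN1 were higher and SEC61B lower in HPV+ resistant cells, where 7.65% of all genes were higher and 10.5% lower by that rule. DNAJB9 was higher and SEC61B lower in HPV− resistant cells, where the shares of all genes were 12.8% and 14.1%.

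HERPUD1, an ER membrane protein that helps to degrade misfolded proteins, had 106 and 117 CPM in HPV+ resistant cells, against 55.8 and 65.3 CPM in HPV+ parental cells, a log2 fold change of 0.88 ± 0.18 (SE, edgeR, adjusted p = 0.0088). HSPA5, which encodes BiP, the chief chaperone of the ER, had 733 and 702 CPM in HPV+ resistant cells, against 446 and 484 CPM in HPV+ parental cells, a log2 fold change of 0.62 ± 0.34 (SE, edgeR, adjusted p = 0.24). XBP1 had 89.2 and 90.2 CPM in HPV+ resistant cells, against 57.7 and 58.2 CPM in HPV+ parental cells, a log2 fold change of 0.63 ± 0.23 (SE, edgeR, adjusted p = 0.084). In all 3 the resistant libraries were the higher ones without overlap, as were 33.5% of all genes in this comparison. ERN1, the IRE1 gene, was at 0.90 ± 0.23 and reached 1.05 and a call without HPV+ resistant replicate 1. DNAJB9, a BiP co-chaperone, had 20.9 and 20.7 CPM in HPV+ resistant cells, against 15.6 and 16.5 CPM in HPV+ parental cells, a log2 fold change of 0.38 ± 0.18 (SE, edgeR, adjusted p = 0.17). The other genes with an ERSE form did not share this direction, at -0.37 for CALR, -0.53 for SDF2L1 and -0.01 for HSP90B1. SEC61B, a subunit of the translocation channel, had 73.5 and 62.0 CPM in HPV+ resistant cells, against 126 and 109 CPM in HPV+ parental cells, a log2 fold change of -0.79 ± 0.16 (SE, edgeR, adjusted p = 0.009).

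The 2 HPV− resistant libraries disagreed on most of the chaperones. HSPA5 had 522 and 1238 CPM in HPV− resistant cells, against 983 and 1247 CPM in HPV− parental cells. CALR, the lectin chaperone calreticulin, had 529.7 and 1605 CPM in HPV− resistant cells, against 1183 and 1038 CPM in HPV− parental cells. HSP90B1, which encodes GRP94, had 655 and 1702 CPM in HPV− resistant cells, against 1224 and 1354 CPM in HPV− parental cells. In each gene resistant replicate 1 was the lowest of the 4 libraries, and resistant replicate 2 was near or above the parental ones. PDIA4, an ER disulfide isomerase, had 277 and 721 CPM in HPV− resistant cells, against 493 and 418 CPM in HPV− parental cells, and SDF2L1, a BiP complex member, 18.5 and 41.0 CPM in HPV− resistant cells, against 52.5 and 40.3 CPM in HPV− parental cells. Between the 2 HPV− resistant libraries, 5 of 7 chaperones were more than 2-fold higher in replicate 2 (71.4%), against 2.82% of all genes, and the median log2 ratio of the 7 was 1.25 beside 0.02. Of 37 wider ER folding genes 4 shared that gap (10.8%, median log2 ratio 0.17). The paper's methods name 2 RNA extraction kits as alternatives and do not say which was used for which library. A part of the kit in the gap was not tested. In the other 3 groups no ER gene of the 12 differed more than 2-fold between its libraries. The median log2 fold change of the ER arm was 0.06 with both libraries, 0.38 without replicate 1 and -0.62 without replicate 2, and in the last case HSPA5 (-1.10), CALR (-1.08) and SDF2L1 (-1.34) were called lower. Leaving out replicate 2 also brought 2 ER genes past both thresholds in the difference between the lines, HSPA5 at 1.72 and XBP1 at 1.14.

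The gap reached some genes of the other arm. CHAC1 and STC2 were also more than 2-fold higher in HPV− resistant replicate 2, and over the 28 genes the median log2 ratio of replicate 2 to replicate 1 was 0.46, and the median log2 fold change of that arm in the HPV− line was -0.05 without replicate 1 and -0.61 without replicate 2. DNAJB9 did not share the gap, with 23.7 and 24.7 CPM in HPV− resistant cells, against 11.9 and 15.7 CPM in HPV− parental cells, a log2 fold change of 0.81 ± 0.18 (SE, edgeR, adjusted p = 0.0091), which passed the test but not the fold. HERPUD1 had 51.5 and 70.3 CPM in HPV− resistant cells, against 47.9 and 56.7 CPM in HPV− parental cells, a log2 fold change of 0.22 ± 0.18 (SE, edgeR, adjusted p = 0.39), and XBP1 had 33.6 and 61.6 CPM in HPV− resistant cells, against 49.0 and 46.7 CPM in HPV− parental cells, a log2 fold change of -0.01 ± 0.23. SEC61B was lower in this line too, with 58.9 and 68.0 CPM in HPV− resistant cells, against 109 and 90.6 CPM in HPV− parental cells, a log2 fold change of -0.66 ± 0.16 (SE, edgeR, adjusted p = 0.014). After the trend of fold change with GC content, length and level was subtracted, SEC61B was at 0.10 in the HPV− line and -0.45 in the HPV+ line.

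**Figure D4:**
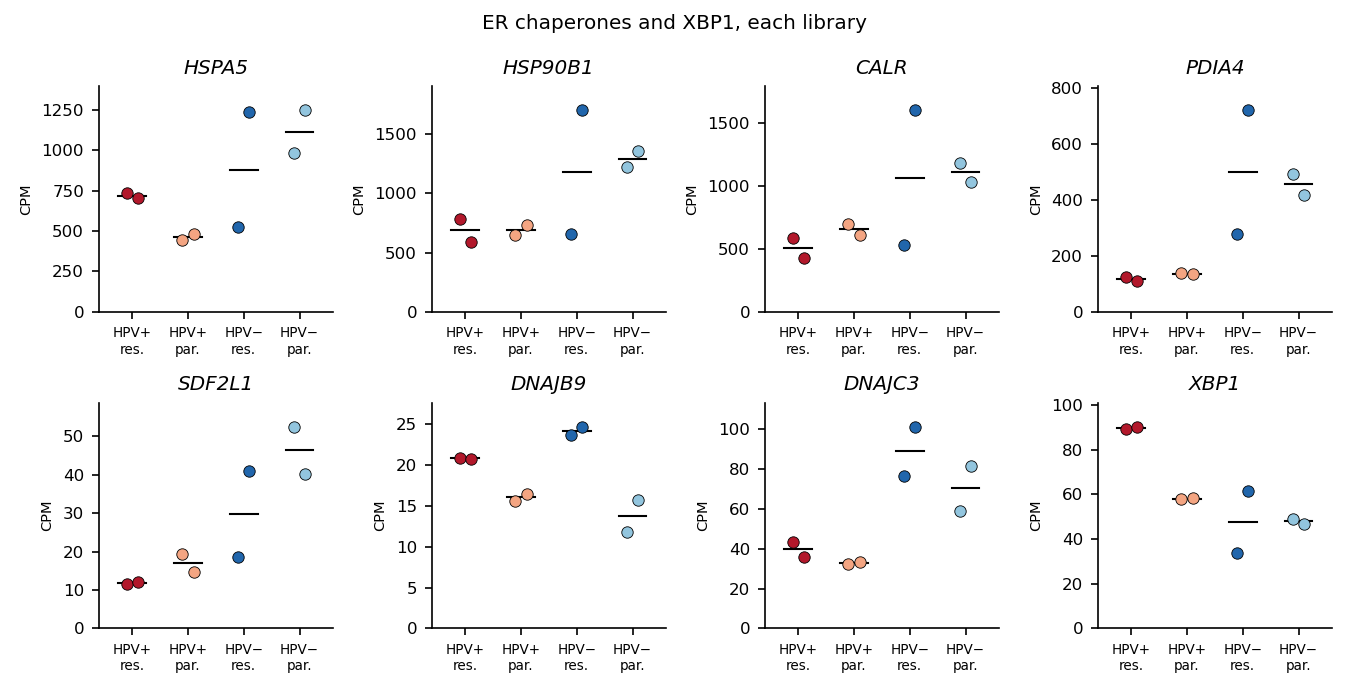
CPM of 7 ER chaperones and XBP1 in each of the 8 libraries (res., resistant; par., parental), with 1 point per library and a bar at the mean of 2. The HPV− resistant points of HSPA5, HSP90B1, CALR, PDIA4 and SDF2L1 are more than 2-fold apart, with replicate 2 the upper point, while those of the other groups lie close together.

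The XBP1 mRNA is where IRE1 acts, and the sequence it removes can be found by comparing transcripts. In GENCODE 44, XBP1-202 matches XBP1-201 around the site but lacks 26 bases of exon 4 of 5, at chr22:28796127-28796152 on the minus strand of GRCh38. The cut can be placed at 7 neighbouring positions with the same result, and the known IRE1 sites were used. The removed bases are in capitals with 25 bases on each side, over chr22:28796102-28796177:
XBP1 splice region: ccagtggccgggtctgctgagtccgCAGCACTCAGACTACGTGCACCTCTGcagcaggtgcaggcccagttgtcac
XBP1-202 was listed at 0 reads in both HPV+ resistant libraries, against 26.7 and 0 in HPV+ parental cells, and at 0 in both HPV− resistant libraries, against 25.4 and 0 in HPV− parental cells. XBP1-201 held 2156 and 2248 reads in HPV+ resistant cells, against 1301 and 1428 in HPV+ parental cells. The XBP1-202 that was quantified is an earlier version of 1131 bases, against 1791 in GENCODE 44 and 1850 for XBP1-201. Its sequence was not compared here, so these reads give no measure of splicing.

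Transcript shares moved by over 10 points, with the libraries of the groups apart, for 11 transcripts of 6 genes in the HPV+ line (CEBPG, EIF2AK3, HSPA5, MTHFD2, SLC3A2 and VLDLR) and 10 transcripts of 7 genes in the HPV− line (ATF3, CEBPG, DDIT4, EIF2AK3, HERPUD1, VLDLR and WARS1), of 292 transcripts. In the HPV+ line 124 of the 292 had libraries apart, and 93 in the HPV− line. No such counts were made for transcripts of other genes, so whether these genes stand out was not tested. The examples were picked after their values were seen. EIF2AK3-201, a coding transcript of PERK, took 46.8 and 53.9% of EIF2AK3 reads in HPV+ resistant cells, against 80.5 and 82.1% in HPV+ parental cells. CEBPG-202, a coding transcript, took 13.4 and 16.5% of CEBPG reads in HPV+ resistant cells, against 1.425 and 2.81% in HPV+ parental cells. CEBPG-203, annotated as a target of nonsense-mediated decay, took 2.88 and 0.577% of CEBPG reads in HPV+ resistant cells, against 24.1 and 19.6% in HPV+ parental cells. In HPV− resistant cells it took 5.56 and 2.17%, against 24.3 and 14.7% in HPV− parental cells, so it was the lower in both clones. DDIT4-204, of the same annotation, took 17.1 and 17.3% of DDIT4 reads in HPV− resistant cells, against 0 and 0.909% in HPV− parental cells. In the HPV+ line its share was 5.09 and 12.9% in resistant cells, against 4.61 and 7.62% in parental cells, and these overlapped. The shares were not tested.

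The 2 parental lines differed before any resistance. HPV+ parental cells were higher than HPV− parental cells in 11 of 28 genes of the integrated stress response arm and lower in 1, WARS1, where 17.7% of all genes were higher and 19.3% lower (37.0% called), and the median was 0.64 beside 0.00 over all genes. Without a minimum fold 16 were higher and 5 lower, beside 58.0% of all genes in either direction, and the libraries of the lines did not overlap in 16 higher and 7 lower genes, beside 39.6% and 39.8% of all genes (79.5% together). NUPR1 had 240.3 and 257 CPM in HPV+ parental cells, against 23.2 and 11.8 CPM in HPV− parental cells, a log2 fold change of 3.83 ± 0.28 (SE, edgeR, adjusted p = 3.13e-06). ATF5 had 683 and 682 CPM in HPV+ parental cells, against 51.5 and 48.2 CPM in HPV− parental cells, a log2 fold change of 3.77 ± 0.16 (SE, edgeR, adjusted p = 4.37e-08). ATF3 and CHAC1 were higher by 2.34 and 2.83 on the log2 scale. The groups were far apart in all 4. VLDLR, PHGDH, STC2, EIF2AK3, DDIT3, TRIB3 and SLC7A1 followed with log2 fold changes between 1.19 and 1.70. WARS1 ran the other way, with 98.2 and 98.9 CPM in HPV+ parental cells, against 423 and 471 CPM in HPV− parental cells, a log2 fold change of -2.18 ± 0.19 (SE, edgeR, adjusted p = 5.01e-06). HPV+ resistant cells, at 291 and 323 CPM, overlapped HPV− resistant cells, at 316 and 465 CPM, in WARS1. ATF4 was at 0.75 ± 0.23 (SE, edgeR, adjusted p = 0.017), under the fold threshold, and was called at 1.19 without HPV− parental replicate 1. After the trend with GC content, length and level was subtracted, ATF4 was at 1.34 and DDIT3 at 2.01, against 1.34 before for DDIT3. The STC2 call was lost without any 1 of 3 parental libraries, with values of 1.39 to 1.43, and that of SLC7A1 without HPV− parental replicate 1, at 0.95.

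In the ER arm HPV+ parental cells were lower in 4 of 12 genes (19.3% of all genes), the chaperones PDIA4, SDF2L1, HSPA5 and DNAJC3, and higher in 1 (17.7% of all genes), EDEM1, which acts in the degradation of misfolded glycoproteins. The 5 of 12 are 41.7%, near the 37.0% of all genes. PDIA4 had 138 and 135 CPM in HPV+ parental cells, against 493 and 418 CPM in HPV− parental cells, a log2 fold change of -1.74 ± 0.39 (SE, edgeR, adjusted p = 0.006). HSPA5 had 446 and 484 CPM in HPV+ parental cells, against 983 and 1247 CPM in HPV− parental cells, a log2 fold change of -1.26 ± 0.34 (SE, edgeR, adjusted p = 0.013). SDF2L1 (-1.45), DNAJC3 (-1.09) and EDEM1 (1.25) completed the calls, with no overlap between the lines in any of the 5. The HSPA5 call was lost when any 1 of the 4 parental libraries was left out (log2 values of -1.44 to -1.13), the PDIA4 call without either HPV− parental library (-1.63 and -1.90), and the DNAJC3 call without HPV− parental replicate 2 (-0.88).

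Levels of different genes can be set side by side only per length, as TPM (the length-scaled unit of Salmon, mean ± SD, n = 2). In HPV+ resistant cells ATF5 was the most abundant of the 40 at 972 ± 39.0 TPM, followed by ATF4 at 618 ± 21.1, and in HPV+ parental cells the pair stood in the other order, ATF4 at 578 ± 14.7 and ATF5 at 504 ± 14.7 TPM. In HPV− resistant cells CALR led at 703 ± 497 TPM, with HSP90B1 next at 500.1 ± 313, and they led in HPV− parental cells too, at 643 ± 14.1 and 483 ± 87.8 TPM. The 2 HPV− resistant libraries were far apart in both chaperones. CALR was above HSP90B1 in each of them, at 352 against 278 TPM in replicate 1 and 1054 against 722 TPM in replicate 2. The order was not tested. VLDLR was the lowest in HPV+ resistant cells, at 3.04 ± 0.490 TPM, and ATF3 in HPV− resistant cells, at 0.794 ± 0.0135 TPM.

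Genes of the same pathways outside the 40 were counted in 4 lists. Of 32 tested genes of the wider integrated stress response, 3 rose and 0 fell in HPV+ resistant cells, and 3 rose and 1 fell in HPV− resistant cells, where 8.0% of all genes were called in the HPV+ line and 11.3% in the HPV− line. Without a minimum fold 6 were higher and 2 lower in the HPV+ line (7.65% and 10.5% of all genes), with a median log2 fold change of 0.33. In the HPV− line 3 were higher and 9 lower (12.8% and 14.1% of all genes), with a median of -0.17. At an unadjusted p below 0.05 there were 11 higher and 2 lower in the HPV+ line (15.1% and 18.0% of all genes). DESeq2 called none lower in that line. By the same rule 5 were higher and 11 lower in the HPV− line (19.8% and 19.5% of all genes). CCPG1, a receptor for ER turnover by autophagy, had 87.2 and 102 CPM in HPV+ resistant cells, against 30.3 and 37.8 CPM in HPV+ parental cells, a log2 fold change of 1.47 ± 0.20 (SE, edgeR, adjusted p = 0.0015). VEGFA, the angiogenic growth factor, had 1094 and 1549 CPM in HPV+ resistant cells, against 513 and 483 CPM in HPV+ parental cells, a log2 fold change of 1.41 ± 0.20 (SE, edgeR, adjusted p = 0.0015). In both genes the groups were apart. The third was CTH, of cysteine synthesis, at a log2 fold change of 1.14. CTH, GDF15, XPOT, EIF2S1 and FKBP14 are named here and below after their values were seen.

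KLHL24 had 37.4 and 26.2 CPM in HPV− resistant cells, against 8.12 and 9.78 CPM in HPV− parental cells, a log2 fold change of 1.83 ± 0.19 (SE, edgeR, adjusted p = 2.23e-04). SLC1A4, a neutral amino acid transporter, had 12.8 and 20.2 CPM in HPV− resistant cells, against 4.22 and 6.90 CPM in HPV− parental cells, a log2 fold change of 1.56 ± 0.27 (SE, edgeR, adjusted p = 0.0026). The third to rise was the secreted stress factor GDF15, at a log2 fold change of 2.20. SLC7A11, the cystine transporter, fell, with 25.3 and 29.3 CPM in HPV− resistant cells, against 61.6 and 76.7 CPM in HPV− parental cells, a log2 fold change of -1.34 ± 0.17 (SE, edgeR, adjusted p = 5.70e-04). In KLHL24, SLC1A4 and SLC7A11 the groups did not overlap. Between the lines the change was higher in the HPV+ line for 4 of the 32, VEGFA, SLC7A11, XPOT and EIF2S1, and lower for 2, KLHL24 and SLC1A4, where DESeq2 counted 7 and 3.

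Of 15 tested cytosolic tRNA synthetases outside the 40, edgeR called 0 in either line, with 4 higher and 1 lower at an unadjusted p below 0.05 in HPV+ resistant cells and 0 higher and 7 lower in HPV− resistant cells, beside 15.1% and 18.0% of all genes in the HPV+ line and 19.8% and 19.5% in the HPV− line, and DESeq2 called none. Of 21 genes of ER translocation 0 were called in either line by either tool, with 2 higher and 3 lower at that unadjusted p in the HPV+ line and 2 and 9 in the HPV− line. Of 37 further genes of ER folding, FKBP14, a prolyl isomerase, had the lower change in the HPV+ line (-1.07 on the log2 scale), and 1 was higher in each clone, TXNIP, an inhibitor of thioredoxin, at low counts. It had 1.90 and 1.08 CPM in HPV+ resistant cells, against 0.432 and 0.566 CPM in HPV+ parental cells, a log2 fold change of 1.57 ± 0.45 (SE, edgeR, adjusted p = 0.037). For the HPV− line the values were 8.36 and 8.28 CPM in HPV− resistant cells, against 2.35 and 4.10 CPM in HPV− parental cells, a log2 fold change of 1.36 ± 0.39 (SE, edgeR, adjusted p = 0.026). The groups were apart. The HPV+ call was lost without either HPV+ parental library (1.38 and 1.77), HPV+ resistant replicate 1 (1.10) or either HPV− resistant library (1.56 each), the HPV− call was lost without HPV− parental replicate 1 (1.01) or either HPV− resistant library (1.35 and 1.36), and an offset for transcript length gave 0.47 with edgeR adjusted p = 0.70 in the HPV+ line and 1.38 with adjusted p = 0.14 in the HPV− line.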

How the data were processed

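Polyadenylated RNA of 8 libraries had been sequenced as read pairs. The authors quantified transcripts with Salmon on GRCh38, and they deposited estimated counts, TPM and effective length per transcript. Which Salmon release and which annotation they used was not found in the sources used here. Of 187432 transcripts, 172550 were matched to GENCODE 44 and their estimated counts were summed per gene and rounded, and the other 14882 were not used. SESN2, PCK2, HYOU1 and VARS1 of the wider lists were not analysed here. Of the 40 genes, 38 had all annotated transcripts in the files. The exceptions were PPP1R15A, with 2 of 5 transcripts, and SLC3A2, with 39 of 41. The deposited TPM were summed per gene for levels.

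Genes passing filterByExpr (15221) were fitted in edgeR 4.0.16 (R 4.3.3) with TMM factors, 1 coefficient per group and the robust quasi-likelihood test over all 8 libraries, as a shared spread leaves 4 residual degrees of freedom. A call needed Benjamini-Hochberg adjusted p below 0.05 and a log2 fold change beyond 1. The method was tested on simulated data. CPM between libraries were compared after adding 0.1 CPM. Non-overlap of 2 against 2 libraries was common, at 61.2% of genes in the HPV− line and 67.8% in the HPV+ line. The members and lists were chosen with earlier results of these data known. Named were all members called in a line or in the difference between lines, 10 set members, and up to 2 called genes per wider list, direction and line. Alternatives were DESeq2 1.42.0, other scalings, filters and thresholds, a transcript length offset, a replicate block and leaving out each library. A restriction to genes with every annotated transcript was added after seeing the data. The replicate numbers did not pair the libraries.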

Additional observations from a re-analysis of the deposited data

Results flagged for a closer look

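The change between resistant and parental cells differed between the lines by the interaction test (edgeR, HPV+ change minus HPV− change, log2 scale) in 9 of the 40 genes. ATF3 (4.19) and PPP1R15A (2.57) rose in the HPV+ line and fell in the HPV− line. PSAT1 (1.91), TRIB3 (1.88), WARS1 (1.83), CHAC1 (1.46) and CEBPG (1.23) rose in the HPV+ line and were not called in the HPV− line. MTHFD2 (1.32) fell in the HPV− line and was not called in the HPV+ line, and ATF5 (1.50) was not called in either. Of the wider lists, VEGFA (1.95) and SLC7A11 (1.77) had the higher change in the HPV+ line, and KLHL24 (-1.97) and SLC1A4 (-1.94) the lower one. Each comparison rests on 2 libraries per group, and groups of 2 were not searched for single outlying libraries.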

How the results depend on the processing

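Each gene's direction was kept wherever it was called. Over the alternatives, values of called genes and the 10 set genes were graded the same in 1339 cases, weaker in 104 and stronger in 3. A further 31 values with no test moved by more than 1 SE. These grades do not count every call gained. Leaving out single libraries added calls to set genes such as ATF4, DDIT3, ASNS, HSPA5 and XBP1 in the difference between the lines. Over all 40 genes and 4 comparisons, leaving out single libraries lost a call 29 times and added a call 21 times. With no minimum fold change the ER arm had 2 calls in the HPV− line and 3 in the HPV+ line in place of 0, and the integrated stress response arm had 9 in place of 5 in the HPV− line and 21 in place of 12 between the parental lines. Tested against a log2 fold change of 1, the integrated stress response arm kept 3 of 9 in the HPV+ line, 1 of 5 in the HPV− line and 4 of 9 in the difference between the lines, and the ER arm 0 of 5 between the parental lines. DESeq2 on 8 libraries gave 10 higher and 1 lower for that arm in the difference, in place of 9 and 0. The stricter thresholds act by their construction, and otherwise the cause was not tested.

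Leaving out 1 library at a time, the integrated stress response arm had 5 to 9 calls in the HPV+ line, 3 to 8 in the HPV− line, 8 to 13 in the difference and 11 to 12 between the parental lines. The ER arm had 0 to 1 in the HPV+ line, 0 to 3 in the HPV− line, 0 to 2 in the difference and 2 to 5 between the parental lines. With the replicate number as a block the counts were 9, 5, 9 and 12 in the integrated stress response arm and 0, 0, 0 and 5 in the ER arm, in the order HPV+ line, HPV− line, difference and parental lines. The deviations of same-numbered libraries from their group means correlated at -0.07 to 0.14, so the block stands for no known pairing. With 2 libraries per group and 1 clone per line, small changes were beyond what the depth and replication show.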
